A study of Mus musculus with 6 samples.

Results

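Aminoacyl-tRNA synthetases, the enzymes that load each amino acid onto its tRNA, were followed in RNA-Seq data of mammary tumors and normal, adjacent mammary glands. The members were the genes of the deposited table whose symbol is that of a cytosolic synthetase (20 genes) or of a mitochondrial synthetase, whose symbol ends in 2 (16 genes), in all 36 of 15280 genes. Each of the 36 was tested, and none was lost to a filter on low values.

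All libraries came from parous, female BK5.ATF3 transgenic mice that had raised one litter, in which the BK5 promoter drives *ATF3* in basal epithelial cells. The tumors of this model arise at 6 to 12 months, and each mouse was sacrificed at a tumor length of 1.5 cm. From each of 3 mice, 1 tumor (libraries T11035, T11640 and T9232) and 1 normal, adjacent gland (M11035, M11640 and M9232) were sequenced, the number being that of the mouse, so the normal glands carry the transgene too and no wild-type group was analysed here. Values are given below in that order of mice, and a mean is over 3 mice.

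Cytosolic translation and mitochondrial translation use separate sets of synthetases, both encoded in the nucleus. Each cytosolic enzyme supplies the ribosomes that make most proteins of the cell, while the mitochondrial enzymes serve only the few proteins encoded by mitochondrial DNA, which are subunits of the respiratory chain. *Gars* and *Kars* are exceptions, as each encodes both forms of its enzyme from a single gene. Several cytosolic synthetases are known targets of the transcription factor ATF4, which is made when amino acids are scarce and binds a C/EBP-ATF response element (CARE). NRF1 is a transcription factor known to bind promoters of nuclear genes for mitochondrial proteins.

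Promoter sequences show where these letters lie in the synthetase genes. RefSeq (GRCm38.p6) gave a promoter of 300 bases, from 250 before to 50 after the start of the gene, for 27 of the 36 members, 13 cytosolic and 14 mitochondrial. *Cars*, *Hars*, *Lars*, *Nars*, *Rars*, *Vars*, *Wars*, *Hars2* and *Pars2* had no entry. The CARE letters TGATGNAA were found, on either strand, in 5 of the 13 cytosolic promoters and in 0 of the 14 mitochondrial ones, against 3.10% of the 10726 promoters of genes in the table and 4.51% of all 27025. Stretches of 4 of these genes are shown because the same letters recur close to their starts, with the match in capitals.
*Gars*, chr6:55037881-55038000 (+ strand): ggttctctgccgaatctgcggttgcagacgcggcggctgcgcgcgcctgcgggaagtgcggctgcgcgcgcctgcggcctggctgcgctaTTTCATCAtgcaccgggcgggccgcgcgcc
*Tars*, chr15:11399659-11399778 (- strand): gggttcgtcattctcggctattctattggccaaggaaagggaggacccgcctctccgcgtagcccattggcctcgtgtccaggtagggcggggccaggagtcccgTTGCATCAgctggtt
*Iars*, chr13:49682122-49682149 (+ strand): ctggcactgtcagtaTTGCATCAcctcc
*Yars*, chr4:129189889-129189916 (+ strand): ggagcgacgagctcagcTGATGCAAccc
The match began 30 bases before the start in *Gars* and 15 before in *Tars*, and after the start in *Iars* and *Yars*. *Aars*, the other cytosolic gene with the CARE letters, is not shown. Its matches began 112 bases before the start and at base 10 counted from the start.

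NRF1 core letters, GCGCATGC, were found in 3 of the 14 mitochondrial promoters (*Rars2*, *Vars2*, *Wars2*) and in 0 of the 13 cytosolic ones, against 5.32% of the promoters of genes in the table and 3.05% of all. A pair of these promoters is shown with the match in capitals. *Iars2*, whose transcript level differs most firmly among the mitochondrial members lower in tumors, is shown with them and held none of the motifs searched.
*Vars2*, chr17:35667593-35667712 (- strand): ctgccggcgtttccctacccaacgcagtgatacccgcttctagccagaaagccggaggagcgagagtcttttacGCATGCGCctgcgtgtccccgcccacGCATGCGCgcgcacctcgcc
*Wars2*, chr3:99140970-99141089 (+ strand): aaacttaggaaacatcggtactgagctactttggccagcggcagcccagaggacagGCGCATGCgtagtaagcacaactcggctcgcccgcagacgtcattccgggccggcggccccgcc
*Iars2*, chr1:185329402-185329521 (- strand): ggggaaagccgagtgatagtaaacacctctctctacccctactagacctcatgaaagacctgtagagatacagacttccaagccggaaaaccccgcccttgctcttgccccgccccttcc
The other motifs searched were the E-box CACGTG (4 cytosolic and 1 mitochondrial promoters, 10.9% of the promoters of genes in the table), the ETS letters CCGGAAGT (2 and 1, 7.70%), the AP-1 letters TGANTCA (*Qars* alone among 27, 7.44%) and the CRE TGACGTCA (0 of 27, 3.25%). CACGTG reads the same on both strands, as does TGACGTCA. A match is only a run of letters, and binding was not measured here.

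Depth ran from 4750989 to 7806908 fragments on genes per library, and 3 fragments, taken as the floor, correspond to between 0.393 and 0.610 CPM (counts per one-millionth of the effective library size). Every member was above this floor in every library. The floor speaks of counting error alone, because PCR copies of one molecule are counted as separate fragments. The tissues differed in much more than their synthetases. Summed adipocyte markers were at 6428 to 11986 CPM in the glands and at 266 to 419.5 CPM in the tumors, and all 10 fell. Summed squamous epidermal markers were at 30.9 to 55.8 CPM in the glands and at 3484 to 5354 CPM in the tumors, and all 10 rose. All 6 T cell markers measured fell, and skeletal muscle markers stood at 4083 CPM in gland M11035 and 1560.4 CPM in gland M11640 but 5.06 CPM in gland M9232. The part of these cell types in the results below was not tested, and in bulk tissue fewer cells of a type and less RNA per cell cannot be told apart. The 8 epithelial markers summed to 227 to 497 CPM in the glands and to 2024 to 2667 CPM in the tumors, and 7 of them rose.

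Most cytosolic synthetases had higher levels in tumors, each by less than 2-fold. With FC (fold change) of at least 2 and an adjusted p of at most 0.05 in limma, 0 of the 20 were DEGs (differentially expressed genes), where 14.5% of all genes were upregulated and 13.7% downregulated DEGs. In edgeR and in DESeq2 the count was also 0, although 12 of the 20 had an unadjusted p under 0.05. Without the FC threshold, 6 of the 20 rose and 0 fell, where 21.6% of all genes rose and 19.6% fell. edgeR called the same number, 6, and DESeq2 called 7. In 15 of the 20 genes, the 3 tumors lay above the 3 glands, and in 0 below them, against 27.6% of all genes above and 26.3% below. The median log2 fold change was 0.41, between -0.28 for *Wars* and 0.88 for *Rars*, where the median over all genes was -0.00. Summed over the 20 genes, expression was 1252, 1190.2 and 1277 CPM in the glands and 1603, 1751 and 1557 CPM in the tumors. The median of the within-mouse differences was 0.29, 0.56 and 0.31 on the log2 scale, so the direction held in each mouse.

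**Figure D1:**
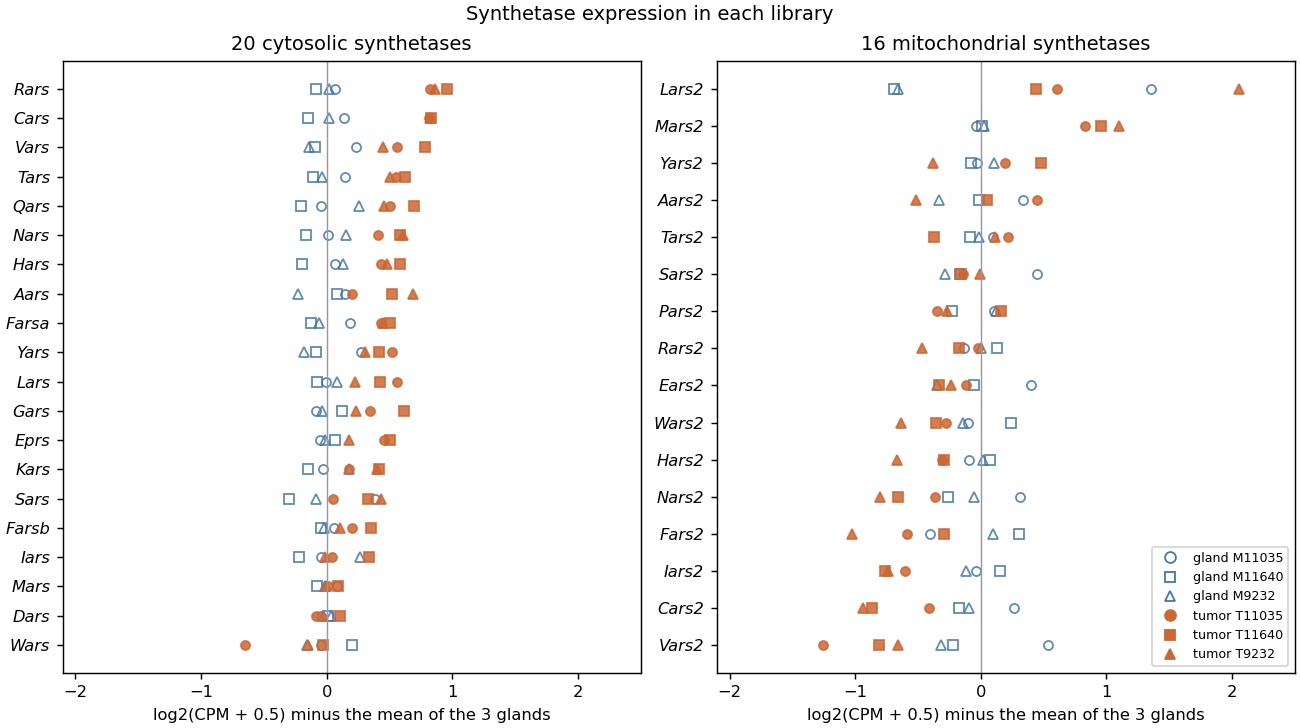
Expression of each synthetase in each of the 6 libraries, as log2(CPM + 0.5) minus the mean of the 3 glands (0 on the horizontal axis); open blue symbols are normal glands, filled orange symbols are tumors, and circles mark T11035 and M11035, squares T11640 and M11640, and triangles T9232 and M9232. In 15 of 20 cytosolic genes all tumors sit to the right of all glands, and in 6 of 16 mitochondrial genes all tumors sit to the left.

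*Rars*, the arginyl-tRNA synthetase, had the firmest rise. It stood at 91.5, 82.3 and 88.4 CPM in the glands and at 155, 170.4 and 159 CPM in the tumors. The lowest tumor was well above the highest gland, and the means were 87.4 ± 4.70 and 162 ± 7.83 CPM (SD, n = 3). The log2 fold change, given with its standard error after ±, was 0.88 ± 0.13 (adjusted p = 0.000865, limma). *Cars*, the cysteinyl-tRNA synthetase, was less abundant, at 11.8, 9.58 and 10.8 CPM in the glands and 19.2, 19.4 and 19.3 CPM in the tumors. The tumors differed from each other by less than the glands did, and the log2 fold change was 0.82 ± 0.18 (adjusted p = 0.00667, limma). *Rars* and *Cars* kept their calls under all 16 alternative settings.

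The other 4 cytosolic genes that rose did so by about 1.4 to 1.5-fold. *Tars*, for threonine, stood at 44.3, 37.2 and 39.0 CPM in the glands and at 58.8, 61.9 and 57.1 CPM in the tumors (0.56 ± 0.15 on the log2 scale, adjusted p = 0.0159, limma). *Nars*, for asparagine, stood at 161, 143 and 179 CPM in the glands and at 213, 239.7 and 244 CPM in the tumors (0.53 ± 0.14, adjusted p = 0.0163, limma). Groups were apart in both genes, by more in *Tars*. *Qars*, for glutamine, stood at 36.6, 32.7 and 45.3 CPM in the glands and at 54.0, 61.7 and 52.0 CPM in the tumors (0.55 ± 0.17, adjusted p = 0.0327, limma). *Hars*, for histidine, stood at 27.2, 22.6 and 28.6 CPM in the glands and at 35.4, 39.3 and 36.6 CPM in the tumors (0.50 ± 0.16, adjusted p = 0.0389, limma). With the mouse as a block, *Qars* and *Hars* lost their calls (adjusted p = 0.0505 and 0.0591, limma) and 4 of the 20 rose. Exons of *Hars* overlap those of *Hars2* on the opposite strand, and the library kit keeps no strand, so fragments in the overlap could belong to either gene.

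Another 9 cytosolic genes had all tumors above all glands without passing the test. *Eprs*, *Lars* and *Kars* of the multisynthetase complex were among them. *Eprs*, which joins the glutamyl- and prolyl-tRNA synthetases in one protein, stood at 269, 292 and 275 CPM in the glands and at 382, 396 and 315 CPM in the tumors (log2 fold change 0.38, adjusted p = 0.0554, limma). *Lars*, the leucyl-tRNA synthetase and a leucine sensor of the mTORC1 pathway, stood at 102, 97.3 and 108 CPM against 152, 138 and 120.0 CPM (0.40, adjusted p = 0.0506, limma). *Kars*, for lysine, stood at 30.7, 28.2 and 35.4 CPM against 35.5, 42.1 and 41.5 CPM, so that its groups nearly touched (0.33, adjusted p = 0.141, limma). *Gars*, for glycine, stood at 64.0, 73.7 and 66.1 CPM against 86.2, 104 and 79.7 CPM (0.40, adjusted p = 0.0715, limma). *Aars*, for alanine, stood at 25.2, 24.1 and 19.3 CPM against 26.2, 32.9 and 36.9 CPM (0.47, adjusted p = 0.0859, limma). In *Kars* and *Aars* the lowest tumor, T11035 in each, was close to the highest gland. *Yars*, for tyrosine, stood at 21.6, 16.7 and 15.6 CPM against 25.7, 23.9 and 22.0 CPM (0.41, adjusted p = 0.115, limma). *Vars*, for valine, was the least abundant cytosolic member, at 4.07, 3.14 and 3.01 CPM against 5.21, 6.16 and 4.80 CPM (0.60, adjusted p = 0.0877, limma). Its values rest on 19 to 47 fragments per library. Exons of *Yars* overlap those of *C77080*.

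Phenylalanyl-tRNA synthetase is made of 2 subunits, α encoded by *Farsa* and β by *Farsb*, which assemble in equal numbers. *Farsa* stood at 8.54, 6.77 and 7.11 CPM in the glands and at 10.2, 10.7 and 10.3 CPM in the tumors (log2 fold change 0.46, adjusted p = 0.0994, limma). *Farsb* stood at 73.2, 67.9 and 69.2 CPM in the glands and at 80.8, 89.8 and 75.5 CPM in the tumors (0.22, adjusted p = 0.236, limma). Groups were apart in both genes, yet neither passed the test. *Farsb* overlaps *Sgpp2* in exons, and *Farsa* shares 160 bases at 95% identity with a place on chromosome 4. Per kb of exon, the level of *Farsa* was 1.65 CPM in the glands and 2.30 CPM in the tumors, and that of *Farsb* was 28.7 and 33.6 CPM, so transcripts of the subunits were counted at very unequal levels in both tissues. The log2 ratio of *Farsa* to *Farsb*, from CPM with no pseudocount and no division by length, was -3.24 ± 0.12 in the glands and -2.97 ± 0.097 in the tumors (SD, n = 3).

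Groups overlapped in the remaining 5 cytosolic genes. *Dars*, for aspartate, was nearly the same in both tissues, at 97.8, 101 and 103 CPM in the glands and 95.1, 109 and 98.6 CPM in the tumors (-0.00 ± 0.13 on the log2 scale). *Mars*, for methionine, stood at 28.3, 25.3 and 26.4 CPM in the glands and at 26.8, 28.4 and 26.5 CPM in the tumors (0.03 ± 0.16). Exons of *Mars* overlap those of *Ddit3*, which encodes the stress factor CHOP. *Iars*, for isoleucine, had a log2 fold change of 0.12 (standard error 0.18) and shares 1678 bases at 95.7% identity with a copy on chromosome 1, so its counts are uncertain. *Sars*, for serine, had a log2 fold change of 0.27 (standard error 0.21), with gland M11035 at 59.0 CPM above 2 of the 3 tumors. *Wars*, for tryptophan and known as an interferon-γ-induced gene, was the lowest of the 20 at -0.28 (standard error 0.22, adjusted p = 0.354, limma). Tumor T11035 had the lowest *Wars* value, 10.8 CPM, while the other 2 tumors lay among the glands. Of 11 interferon-γ response genes, 1 rose (*Cxcl10*, 1.39) and 3 fell, where 21.6% of all genes rose and 19.6% fell. The median log2 fold change of the 11 was -0.37, and a link to the *Wars* level was not tested. *Ido1*, a tryptophan-degrading enzyme, was lowest at -2.07 (standard error 0.70). Its values were low, at 11.4, 1.82 and 2.46 CPM in the glands and 1.49, 0 and 0.599 CPM in the tumors.

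The cytosolic members were also grouped by what is known of them. For the counts that follow, 21.6% of all genes rose. Of the 8 synthetases held in the multisynthetase complex, 2 rose and the median log2 fold change was 0.36. Of the other 12, 4 rose and the median was 0.47. The 13 cytosolic members on a hand-made list of ATF4 target synthetases had 3 that rose and a median of 0.40, and the 7 not on it had 3 and a median of 0.46. Class I and class II enzymes, which differ in the fold of their catalytic domain, had medians of 0.41 over 9 genes and 0.43 over 10, with *Eprs* in neither. Among cytosolic members with a promoter entry, the 5 with the CARE letters had a median of 0.41 and 1 that rose (*Tars*). The 8 without these letters had a median of 0.30 and 1 that rose (*Qars*). *Rars*, *Cars*, *Nars* and *Hars* also rose but had no promoter entry, so this split does not cover most of the genes that rose. These differences between subgroups were not tested.

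Mitochondrial synthetases did not follow the cytosolic ones. In limma 0 of the 16 were DEGs, with 7 at an unadjusted p under 0.05, while edgeR and DESeq2 each called 1 upregulated DEG, *Mars2*. Without the FC threshold, 1 rose and 3 fell, where 21.6% of all genes rose and 19.6% fell, so the share that fell was close to that of all genes. In 6 of the 16 genes the 3 tumors lay below the 3 glands, in 1 above, and in 9 the groups overlapped. The share below, 6 of 16, compares with 26.3% of all genes. The median log2 fold change was -0.23. It was below 0 in 13 of the 16, of which *Aars2* and *Tars2* at -0.01 had slightly higher mean CPM in tumors, so that 11 were lower by mean CPM. Left out of the sum because of its level, *Lars2* is described on its own, and the other 15 summed to 327, 335 and 311 CPM in the glands and to 265, 248 and 214 CPM in the tumors. The median of the within-mouse differences over all 16 was -0.34, -0.30 and -0.43.

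*Iars2*, the mitochondrial isoleucyl-tRNA synthetase, had the firmest fall. It stood at 85.6, 97.9 and 81.3 CPM in the glands and at 57.7, 51.8 and 52.4 CPM in the tumors. All tumors were well below all glands (-0.70 ± 0.15 on the log2 scale, adjusted p = 0.00511, limma). Exons of *Iars2* overlap those of *Rab3gap2*. *Cars2*, for cysteine, stood at 8.95, 6.44 and 6.84 CPM in the glands and at 5.40, 3.80 and 3.6 CPM in the tumors (-0.74 ± 0.26, adjusted p = 0.0484, limma). *Nars2*, for asparagine, stood at 66.3, 44.3 and 51.3 CPM in the glands and at 41.3, 33.6 and 30.3 CPM in the tumors (-0.61 ± 0.20, adjusted p = 0.0399, limma). The adjusted p of *Cars2* was 0.0503 in edgeR and 0.0888 in DESeq2, and its call was lost without any single library but T11035, while *Iars2* kept its call under all 16 alternative settings.

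Another 3 mitochondrial genes lay lower in all tumors without passing the test. *Hars2*, for histidine, stood at 37.8, 42.4 and 40.8 CPM in the glands and at 32.4, 32.8 and 25.2 CPM in the tumors (log2 fold change -0.42, adjusted p = 0.0755, limma). *Wars2*, for tryptophan, stood at 29.5, 37.5 and 28.7 CPM against 26.1, 24.6 and 20.2 CPM (-0.42, adjusted p = 0.103, limma). *Vars2*, for valine, stood at 5.08, 2.81 and 2.60 CPM against 1.12, 1.70 and 1.95 CPM, from 6 to 25 fragments per library (-0.90, adjusted p = 0.0635, limma). *Vars2* thus had the lowest log2 fold change of the 16 with one of the widest errors (standard error 0.34). *Vars2* and *Wars2* are the genes whose promoters are printed above with the NRF1 letters, and the median over the 3 with these letters was -0.42, with 0 that passed the test in limma, against -0.10 over the 11 without, with 4 that passed. The difference was not tested.

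*Mars2*, which charges the methionine tRNA that mitochondria use for both initiation and elongation, was the only mitochondrial member that rose. It stood at 5.08, 5.29 and 5.33 CPM in the glands and at 9.68, 10.6 and 11.8 CPM in the tumors. The glands were nearly equal and the tumors were all higher by close to the same factor (0.96 ± 0.21 on the log2 scale, adjusted p = 0.006, limma), just under the FC threshold. Its call held under all 16 alternative settings.

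*Lars2*, the mitochondrial leucyl-tRNA synthetase, stood apart from the family by its level and its spread. It had 5464, 1323 and 1351 CPM in the glands and 3264, 2899 and 8879 CPM in the tumors, and ranked 6 among the 15280 genes by mean CPM. Gland M11035 lay above 2 of the tumors, so the groups overlapped (1.03 ± 0.59 on the log2 scale, adjusted p = 0.196, limma). Without gland M11035 the log2 fold change was 1.71 and the gene passed the test (adjusted p = 0.0164, limma). Pieces of its last exon, in the 3′ untranslated region, match 3 other places in the mm9 genome on 3 chromosomes at 95% identity or more over at least 150 bases, the longest over 244 bases at 97.5%. Which bases of the gene drew the fragments cannot be read from a table of one value per gene, so the *Lars2* values were kept out of the sums.

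Overlapping groups were the rule for the other 8 mitochondrial genes. *Fars2*, for phenylalanine, had the largest difference among them, from 14.2 ± 3.54 CPM in the glands to 8.99 ± 2.34 CPM in the tumors (SD, n = 3; log2 fold change -0.63, adjusted p = 0.0969, limma). *Ears2*, which charges the mitochondrial glutamate and glutamine tRNAs with glutamate, had a log2 fold change of -0.23, *Rars2* of -0.22, *Pars2* of -0.15, *Sars2* of -0.10 and *Yars2* of 0.10. *Aars2*, for alanine, stood at 2.03, 1.49 and 1.09 CPM in the glands and at 2.23, 1.57 and 0.899 CPM in the tumors (-0.01, standard error 0.37). *Tars2*, for threonine, stood at 10.4, 9.08 and 9.58 CPM in the glands and at 11.4, 7.34 and 10.5 CPM in the tumors (-0.01, standard error 0.23). *Aars2*, *Sars2*, *Pars2* and *Ears2* had at most 26 fragments in any library, and a difference in them would have had to be large to be detectable at this depth. *Ears2* also overlaps *Ubfd1* in exons.

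A cytosolic synthetase can be set against the mitochondrial synthetase for the same amino acid within each library, as the log2 ratio of their CPM + 0.5. Of 17 such pairs, the ratio was higher in all tumors than in all glands in 11, lower in 1, and overlapping in 5. From CPM with no pseudocount, an alternative added after the data were seen, these counts were 10, 1 and 6, as *Eprs*/*Pars2* then overlapped. Of single genes, 27.6% lay above and 26.3% below, and the share over ratios of other gene pairs was not computed. For a single pair, the smallest two-sided p that exact permutation of 3 and 3 libraries can give is 0.1, and pairs that share *Eprs* or *Fars2* are not independent. *Cars*/*Cars2* and *Vars*/*Vars2* had the largest differences. In *Cars*/*Cars2* the log2 ratios were 0.38, 0.54 and 0.62 in the glands and 1.74, 2.21 and 2.28 in the tumors, a difference of the means of 1.56. In *Vars*/*Vars2* they were -0.29, 0.14 and 0.18 in the glands and 1.82, 1.60 and 1.11 in the tumors, a difference of 1.50. With no pseudocount the order of these pairs turned, with differences of 1.66 and 1.78. In both pairs the cytosolic gene was higher and the mitochondrial gene lower in tumors. *Nars*/*Nars2*, *Rars*/*Rars2* and *Farsa*/*Fars2* had differences of 1.14, 1.10 and 1.09. *Mars*/*Mars2* went the other way, from 2.37, 2.16 and 2.20 in the glands to 1.42, 1.38 and 1.13 in the tumors, a difference of -0.93. The ratios overlapped for *Aars*, *Lars*, *Sars*, *Wars* and *Yars*.

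**Figure D2:**
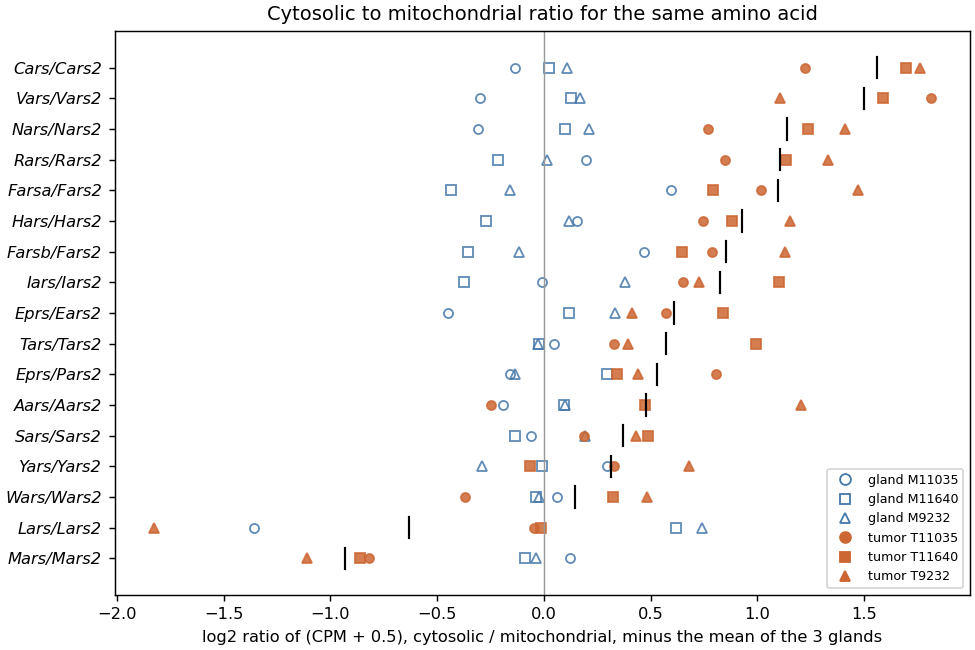
Log2 ratio of CPM + 0.5 of the cytosolic to the mitochondrial synthetase for the same amino acid in each library, minus the mean of the 3 glands; open blue symbols are glands, filled orange symbols are tumors, each shape is a mouse, and the black bar is the difference of the means. The tumors lie to the right of the glands in 11 of 17 pairs and to the left in *Mars*/*Mars2* alone.

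Per kb of exon, the level of the cytosolic members in the glands ran from 0.607 CPM for *Vars* to 61.1 CPM for *Nars*. Next to *Nars* came *Dars* at 40.2 CPM per kb and *Eprs* at 38.7, which did not differ beyond their spread. In the tumors, *Nars* at 88.2, *Eprs* at 50.6 and *Rars* at 50.1 CPM per kb led, so *Rars* moved up among the cytosolic levels. Apart from *Lars2* at 699 CPM per kb in the glands, the mitochondrial members ran from 0.459 for *Aars2* to 15.9 for *Rars2*, with *Nars2* at 12.8. Levels in the glands were lower for transcripts with a higher share of G and C. Across the 20 cytosolic genes, Spearman's rho between the GC share and the level per kb was -0.84, and across the 16 mitochondrial genes it was -0.72. *Vars*, with the lowest cytosolic level, has 60.9% GC in its longest transcript, and *Aars2*, with the lowest mitochondrial level, has 60.0%. These genes share libraries and are not independent replicates, and the part of the GC share in the order of the levels was not tested. The log2 fold changes did not follow the GC share in the same way, with rho of 0.12 and -0.03 in the 2 groups and 0.01 over 14363 genes.

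**Figure D3:**
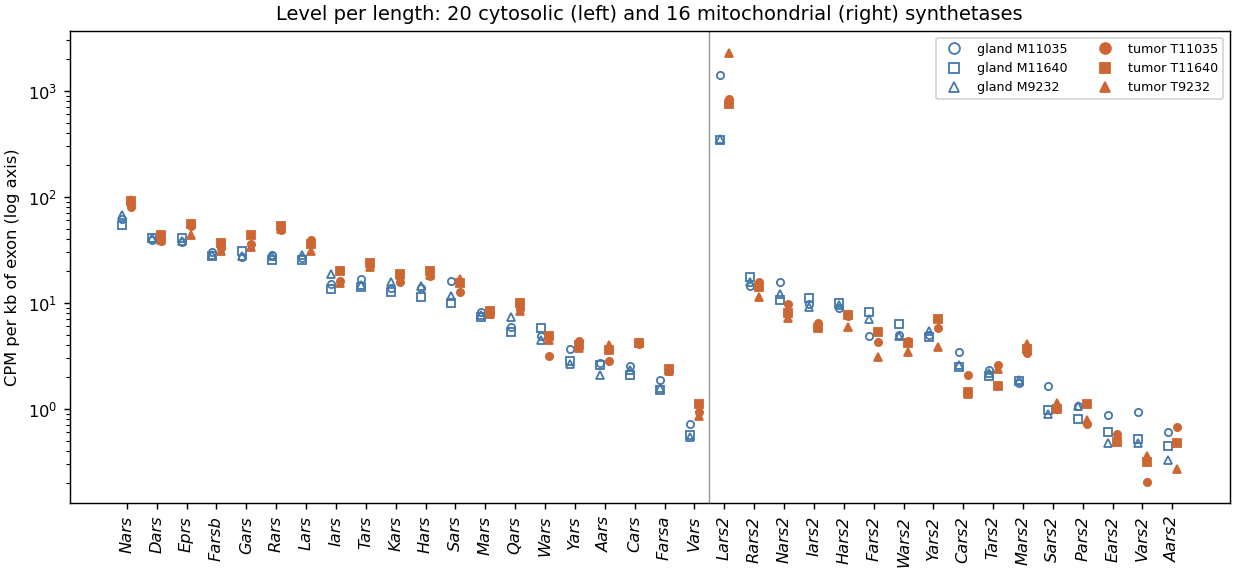
Level of each synthetase in CPM per kb of exon (log axis) in each library, with the 20 cytosolic genes on the left and the 16 mitochondrial genes on the right, each ordered by the gland mean; open blue symbols are glands and filled orange symbols are tumors. *Lars2* lies far above every other member in all 6 libraries, *Vars* is the lowest cytosolic gene, and *Aars2* has the lowest mitochondrial gland mean and *Vars2* the lowest tumor mean (0.291 CPM per kb).

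*Tarsl2*, a relative of *Tars* that is no member and was named after its values were seen, was a downregulated DEG. It stood at 19.1, 19.5 and 15.9 CPM in the glands and at 6.70, 4.98 and 3.90 CPM in the tumors (-1.74 ± 0.24 on the log2 scale, adjusted p = 0.000657, limma). *Tars* itself rose, so these related genes moved in opposite directions. Exons of *Tarsl2* overlap those of *Tm2d3*.

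Partners of the synthetases in the cytosol had medians above 0 in 2 of 3 lists. *Eef1e1* and *Aimp1*, which hold the multisynthetase complex together with *Aimp2*, rose by 0.97 and 0.55 on the log2 scale (adjusted p = 0.00413 and 0.0246, limma), and *Aimp2* had 0.37 (adjusted p = 0.274, limma). *Eef1e1* stood at 18.5, 17.5 and 16.1 CPM in the glands and at 37.8, 39.6 and 27.6 CPM in the tumors. Of 6 genes for tRNA export and proofreading, 1 rose, *Xpot*, the exporter of tRNA from the nucleus, from 94.7, 84.6 and 81.3 CPM to 154, 159 and 139 CPM (0.79, adjusted p = 0.00216, limma). The lowest of the 6 by log2 fold change was *Dtd1* at -0.53 (adjusted p = 0.088, limma). Among 5 genes of cytosolic elongation factors, 2 rose, where 21.6% of all genes rose. Their median was 0.38, from 0.26 for *Eef1d* to 0.70 for *Eef1b2*.

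Mitochondrial partners had medians below 0 in each of 3 lists. Of 13 mitochondrial translation factors, 0 rose and 2 fell in limma, where 21.6% of all genes rose and 19.6% fell. All 13 had a log2 fold change below 0, with 5 at an unadjusted p under 0.05, and the median was -0.43. Both genes that fell, *Pet112l* at -0.93 and *Gatc* at -0.52 (adjusted p = 0.0141 and 0.0361, limma), encode subunits of the amidotransferase that turns glutamate loaded by *Ears2* on the glutamine tRNA into glutamine. The other subunit, *Qrsl1*, had -0.43 (adjusted p = 0.182, limma). Of 75 mitochondrial ribosomal proteins, 1 rose (*Mrpl52*, 0.93) and 7 fell, smaller shares than the 21.6% and 19.6% of all genes, and the median was -0.22. *Mrps6* was lowest, from 23.2, 34.7 and 28.9 CPM in the glands to 6.51, 7.08 and 6.74 CPM in the tumors. Of 15 genes for mitochondrial content and biogenesis, 1 rose (*Tomm20*, an import receptor, 0.59) and 8 fell, with a median of -0.49. *Ppargc1a*, the coactivator that drives mitochondrial biogenesis, was lowest and fell from 71.2, 62.8 and 43.2 CPM to 6.14, 3.01 and 1.8 CPM (-3.95, adjusted p = 8.41e-05, limma). Its fall lies beside that of the adipocyte markers given above, and their part in it was not tested. The gene for NRF1 itself, *Nrf1*, was at -0.04 ± 0.20 on the log2 scale (adjusted p = 0.901, limma).

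**Figure D4:**
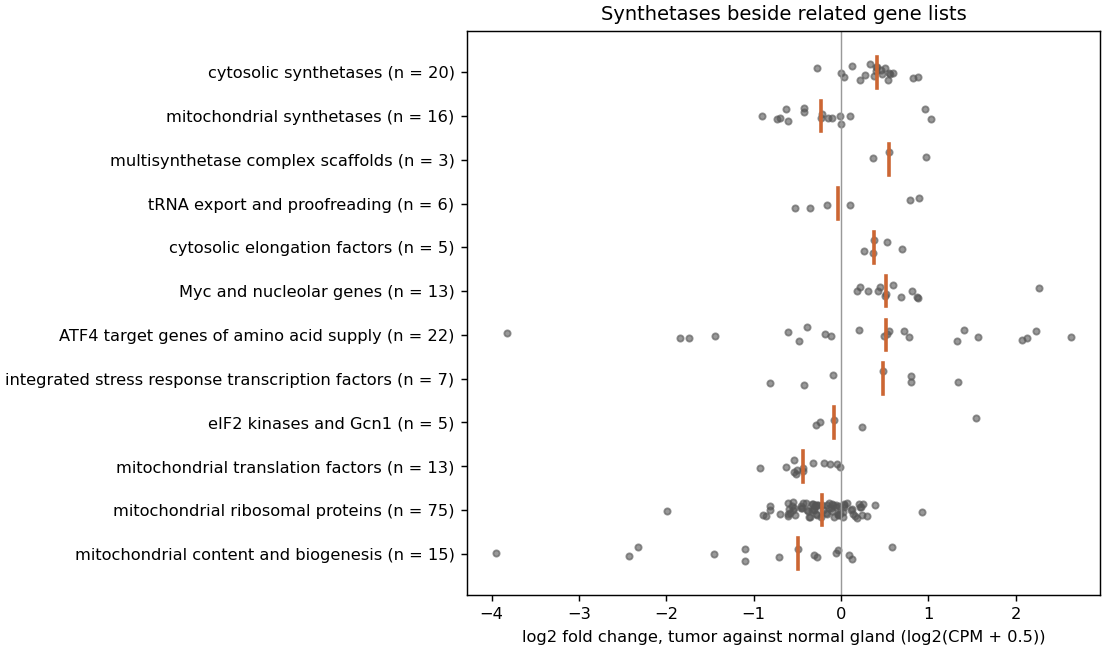
Log2 fold changes (tumor against normal gland, log2(CPM + 0.5)) of the synthetases and of 10 further gene lists; each grey point is a gene and each orange bar is the median of its list. Medians were 0.41 for cytosolic and -0.23 for mitochondrial synthetases, beside -0.43 for mitochondrial translation factors and -0.22 for mitochondrial ribosomal proteins.

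Regulators of the cytosolic synthetases gave mixed values. *Atf3* itself, the mouse gene of the transgene's factor, stood at 4.47, 8.09 and 22.6 CPM in the glands and at 13.4, 18.3 and 19.3 CPM in the tumors, with overlapping groups (0.80 ± 0.49, adjusted p = 0.223, limma), and fragments of the transgene and of the mouse gene were not told apart here. *Atf4* stood at 89.1, 60.6 and 70.9 CPM in the glands and at 100.1, 95.8 and 110.1 CPM in the tumors (0.49, adjusted p = 0.0511, limma), although ATF4 is known to be controlled mainly at translation, which was not measured here. Of 7 transcription factors of the integrated stress response, 2 rose and 1 fell, where 21.6% of all genes rose and 19.6% fell. These factors ran from *Atf5* at -0.81 to *Cebpb* at 1.34 (adjusted p = 0.0462 and 0.00221, limma). Of the 5 genes for eIF2 kinases and Gcn1, 1 rose, *Eif2ak2*, which senses double-stranded RNA (1.54, adjusted p = 0.00147, limma), and *Eif2ak4*, which senses uncharged tRNA, had -0.24 (adjusted p = 0.358, limma).

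Among 22 ATF4 target genes of amino acid supply, 7 rose and 5 fell, where 21.6% of all genes rose and 19.6% fell. The median log2 fold change of this list was 0.51. *Cth*, the last enzyme of cysteine synthesis, was highest and rose from 1.83, 1.65 and 0.821 CPM to 13.2, 8.78 and 11.8 CPM (2.63, adjusted p = 0.000256, limma). *Slc1a5*, the glutamine and neutral amino acid transporter, was lowest and fell from 122, 167 and 96.0 CPM to 10.6, 8.26 and 6.74 CPM (-3.82, adjusted p = 1.15e-05, limma). *Slc7a11*, the cystine importer, rose from 55.7, 54.5 and 111 CPM to 247, 393 and 296 CPM (2.13, adjusted p = 0.000593, limma).

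MYC is known to drive genes of translation and of the nucleolus. Of 13 such genes, *Myc* included, 7 rose and 0 fell in limma, where 21.6% of all genes rose and 19.6% fell. Their median was 0.51, with 7 at an unadjusted p under 0.05. The list of ATF4 target genes also had a median of 0.51. The part of MYC in the synthetase levels was not tested. *Myc* rose from 26.6, 25.1 and 28.3 CPM to 45.6, 42.1 and 34.6 CPM (0.59, adjusted p = 0.0218, limma), and *Npm1*, an abundant nucleolar protein, rose by 0.88 (adjusted p = 0.000708, limma). The lowest was *Pes1* at 0.19 (adjusted p = 0.412, limma) and the highest *Mycn* at 2.26 (adjusted p = 0.0048, limma). Of 10 proliferation genes, 7 rose, with a median of 1.56.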

How the data were processed

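The 6 RNA-Seq libraries of 3 tumors and their matched glands were used. Per the labels and the methods of the study, libraries were made from total RNA with the Ovation RNA-Seq System V2, which keeps no strand, read pairs were mapped to mm9 with TopHat (2.0.3), and fragments were counted per RefSeq gene with htseq-count (0.5.3p9). The authors deposited a normalized signal, CPM on edgeR's effective library size. In every library 100% of values gave whole fragments (tolerance 0.01), and 0 per-sample columns were left out. The planned unit was CPM; it was recorded as signal because column totals differ, and the test stayed the same.

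Tumors and glands were compared with limma (3.58.1, R 4.3.3, two-sided, mean-variance trend) on log2(CPM + 0.5), with Benjamini-Hochberg adjustment over 15280 genes. "Rose" and "fell" mean an adjusted p of at most 0.05, a call without FC threshold that was added after the data were seen. Alternatives were edgeR (4.0.16) and DESeq2 (1.42.0) on the fragments, other pseudocounts, a filter on low values, other scalings, no trend, the mouse as a block and leaving out each library. Of these fits, only the main one in limma was tested on simulated data.

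Since a tumor and its gland share the animal, the mouse numbers pair the samples. Deviations from the group means correlated with r = 0.107 (T11035 and M11035), 0.151 (T11640 and M11640) and 0.0168 (T9232 and M9232). The methods state no block, so the fit without it is reported.

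Members and lists were chosen with earlier results of these data known. Values per library are given for members whose groups do not overlap and for the 2 of each compartment nearest to 0, and of each further list its counts and its highest and lowest gene. Some items under this rule are not reported here. Other genes were named for their known role or after their values were seen. Overlaps and exon lengths come from GENCODE vM1 on mm9, and similar sequence was searched with BLAST (2.17.0). Levels per kb divide by all annotated exon bases of a gene.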

Additional observations from a re-analysis of the deposited data

How the results depend on the processing

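*Rars*, *Cars*, *Mars2* and *Iars2* kept direction and call under all 16 alternatives, and none of the 36 members changed direction with a call. With the mouse as a replicate block in limma, 4 cytosolic genes rose instead of 6 (4 in edgeR with the block), and apart from *Hars* and *Qars* it changed no call of a member. The count of upregulated DEGs among mitochondrial synthetases was 1 instead of 0 with pseudocount 0.1, in edgeR with and without the block, and in DESeq2, where *Mars2* crossed the FC threshold. With plain library totals, 1 mitochondrial gene fell instead of 3, since *Cars2* and *Nars2* had adjusted p = 0.06 and 0.0511 (limma). Leaving out 1 library at a time, 2 to 5 cytosolic genes rose, 1 to 2 mitochondrial genes rose, 1 to 3 fell and 0 to 1 were upregulated DEGs. Cytosolic genes that rose numbered 3 without gland M11640 and 2 without tumor T11640. Mitochondrial genes that fell numbered 1 without gland M9232, tumor T11640 or tumor T9232, and 2 rose without gland M11035. *Hars* lost its call without any single library (adjusted p from 0.0501 to 0.136, limma), *Qars* without any but gland M9232 (0.0561 to 0.127), *Cars2* without any but tumor T11035 (0.0629 to 0.149), *Nars2* without gland M11035, gland M9232, tumor T11640 or tumor T9232 (0.0689 to 0.123), *Nars* without gland M11640, tumor T11640 or tumor T9232 (0.0512 to 0.068), and *Tars* without tumor T11640 (0.0689). Without the trend, *Hars*, *Qars* and *Nars2* had adjusted p = 0.0557, 0.0569 and 0.0667 (limma). Under the alternative scalings the median of all genes lay between -0.0151 and 0.0029 on the log2 scale. *Eprs* passed the test without tumor T9232 (adjusted p = 0.0327), *Fars2* without gland M11035 (0.0433), *Vars* and *Vars2* without the trend (0.0441 and 0.0438), and *Lars* under 5 alternatives (0.0398 to 0.0498, limma or DESeq2). The median log2 fold change of the mitochondrial synthetases was -0.23 with and without *Lars2*.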

Other observations

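The mitochondrial synthetases were also split by the fold of the catalytic domain. Of the 7 class II genes, 5 were lower and 2 higher in tumors by mean CPM, 1 fell (*Nars2*), and their sum was 133, 119 and 123 CPM in the glands and 100.5, 91.7 and 77.9 CPM in the tumors. Of the 9 class I genes, 6 were lower and 3 higher by mean CPM, with 2 that fell (*Iars2*, *Cars2*) and 1 that rose (*Mars2*). The medians were -0.15 for class II and -0.23 for class I, and the difference between the classes was not tested.

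Other cell types also differed between the tissues. All 4 neutrophil markers measured rose, from summed levels of 61.6 to 145 CPM in the glands to 815 to 1399 CPM in the tumors. Of 7 fibroblast markers 3 rose, of 6 endothelial markers 4 fell, of 7 macrophage markers 1 fell, and of 6 B and plasma cell markers 5 fell and 1 rose. Their part in the synthetase levels was not tested.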
